A study of Mus musculus with 4 samples.

Results

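The WNT pathway was followed here gene by gene in primary osteocyte cultures of αKO and WT mice, through the ligands, the receptors and the factors that carry the signal to DNA. The genes were chosen by symbol: every Wnt and Fzd gene whose symbol goes on with a digit, together with Lrp4, Lrp5, Lrp6, Ryk, Ror1, Ror2, Tcf7, Tcf7l1, Tcf7l2, Lef1, Ctnnb1, Axin1, Axin2, Rspo1, Rspo2, Rspo3, Lgr4, Lgr5 and Lgr6. This gave 48 of the 37411 genes counted. Of these 48, 36 had a mean count of 10 or more over the 4 libraries, and the same 36 passed the filter on low counts that left 13571 genes for testing. Of the 36 tested, 30 were lower in αKO than in WT osteocytes, where 50.8% of all genes tested were lower, and 6 were higher. No adjusted p was under 0.05 (edgeR's quasi-likelihood test, smallest adjusted p = 0.902; 0.0% of all genes passed). The 6 with an unadjusted p under 0.05 were Wnt7b, Tcf7, Fzd6, Wnt5a, Axin2 and Lgr6, all on the lower side, where 2.59% of all genes had such a p. In each of them both αKO libraries were below both WT libraries (16.0% of all genes). These 6 were picked by p from the same values, so the lack of overlap is no separate result.

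PPARα is a nuclear receptor that binds fatty acids. The αKO mice lack it in every cell, through a neomycin cassette that replaces part of an exon of Ppara, and the WT mice carry the intact gene. RNA of cultured cells from the collagenase-digested femur (the osteocytic fraction) was sequenced in 4 libraries, 2 αKO and 2 WT, which the labels call biological replicates without stating whether each came from a separate animal, so p-values measure the spread between these cultures. Per the labels all 4 came from C57BL/6 mice aged 5 months after 6 days ex vivo with no treatment, whereas the study's methods place the αKO line on 129S4/SvJae, give an older age and a longer culture, and DMSO stands beside both genotypes in a column name of the authors' comparison. Which of these descriptions holds is not settled by the sources used here.

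WNT proteins are secreted, lipid-carrying ligands that bind Frizzled receptors. In the canonical branch, a Frizzled pairs with LRP5 or LRP6, the destruction complex built on AXIN releases β-catenin, and β-catenin enters the nucleus to act through the TCF and LEF factors. R-spondins, bound by LGR receptors, keep Frizzled and LRP receptors at the cell surface and so amplify the signal. Other branches run through ROR1, ROR2 and RYK. In bone, canonical WNT signalling drives osteoblast differentiation, and osteocytes are known for secreting sclerostin, an inhibitor that binds LRP4, LRP5 and LRP6.

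The libraries held 25136628 to 27496137 counts each. Ppara had 15 and 9 counts in αKO and 16 and 13 in WT osteocytes, which does not test the genotype, since transcripts of the remaining exons are counted too. Of the osteocyte markers, Sost (sclerostin) and Fgf23 had no count in any library. The 5 osteocyte markers tested, of 8 listed, were all lower in αKO by log2 fold change, though Irx5 and Phex overlapped between the genotypes. The summed level of the list was 83.4 and 53.9 CPM (counts over the TMM-adjusted depth) in αKO against 233 and 269 CPM in WT osteocytes. Most of each sum was Pdpn, at 76.3 and 31.7 CPM in αKO against 196 and 201 CPM in WT osteocytes. The 15 macrophage markers, all tested, were all higher in αKO, summing to 33457 and 28029 CPM against 22149 and 13145 CPM. Of 11 osteoblast markers, 10 were lower in αKO. In every library the macrophage sum was far above the osteocyte sum. The word osteocytes therefore names the cultures as labelled, and each level is that of all cells in them. The part of these differences in any result that follows was not tested, and in such bulk libraries fewer cells of a type and less RNA per cell cannot be told apart. The WT libraries also lay far apart, and the log2 ratio between them, replicate 1 over replicate 2, went with the GC content of the genes, with a Spearman's rho of -0.723 across 13511 genes and -0.51 across the 36 tested WNT pathway genes. The ratio between the αKO libraries went with it too, with a rho of -0.595 across the 13511 genes and -0.15 across the 36; genes are not independent replicates.

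The ligands came to 10 tested genes. The highest per unit length, by mean TPM (a level corrected for transcript length), were Wnt5a at 11.6, Wnt4 at 5.65 and Wnt9a at 5.63. Of the ligands, 8 were lower and 2 higher in αKO (median log2 fold change -0.82), the second of these, Wnt16, only at 0.04 and at -0.01 with a GC offset. Wnt7b, a ligand that drives bone formation in the mouse, was at 0.69 and 0.53 CPM in αKO and at 4.16 and 2.46 CPM in WT osteocytes. All 4 values rest on few reads, 18 and 13 counts against 111 and 64. The groups did not overlap. Wnt7b had a log2 fold change of -2.44 (standard error 0.57, unadjusted p = 0.0073), the smallest p among the WNT pathway genes. This value lay between -1.99 and -2.81 with any 1 library left out.

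Wnt7b lies on chromosome 15 of GRCm38 from 85535437 to 85582473, 153 kb from Ppara (85734983 to 85802819). Rspo2 and Fzd6 are on chromosome 15 as well, at 42.6 and 46.7 Mb from Ppara, and Wnt1 and Wnt10b lie closer than these but much farther than Wnt7b. Whether this closeness bears on the Wnt7b value was not tested.

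Wnt5a, a ligand of the ROR and RYK branches, was at 19.9 and 20.6 CPM in αKO and at 33.9 and 59.2 CPM in WT osteocytes. The αKO libraries were close to each other and both below the WT libraries. Over all 4 libraries the log2 fold change was -1.20 (standard error 0.39, unadjusted p = 0.0265), and it lay between -0.78 and -1.52 with any 1 library left out. Wnt5a took 43.9% and 30.3% of the summed ligand TPM in αKO and 49.2% and 29.5% in WT osteocytes. Its share of the ligand pool thus overlapped between the genotypes.

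Wnt4 and Wnt9a, a ligand of joint formation in the mouse, behaved differently from Wnt7b and Wnt5a, since WT replicate 2 stood alone. Wnt4 was at 2.63 and 4.12 CPM in αKO, at 2.88 CPM in WT replicate 1 and at 29.4 CPM in WT replicate 2. Wnt9a was at 1.91 and 3.95 CPM in αKO, at 3.22 CPM in WT replicate 1 and at 21.7 CPM in WT replicate 2. For both, WT replicate 1 lay between the αKO libraries. The log2 fold changes were -2.26 for Wnt4 (standard error 1.08, unadjusted p = 0.0895) and -2.09 for Wnt9a (standard error 0.98, unadjusted p = 0.0838). Without WT replicate 2 they were 0.19 and -0.17, and without WT replicate 1 they were -3.10 and -2.87. The 2 genes together made up 47.4% of the ligand TPM in WT replicate 2 and 16.9% to 22.5% in the other libraries.

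The summed ligand TPM was 14.9 and 21.6 in αKO and 26.2 and 69.8 in WT osteocytes. WT replicate 2 carried the most, and the sums did not overlap. The median log2 fold change of the ligands stood at -1.26 with WT replicate 1 left out and at 0.11 with WT replicate 2 left out, so its direction rested on WT replicate 2. The summed level of the 4 chondrocyte markers listed was highest in the same library. It was 31.6 and 75.9 CPM in αKO, 19.5 CPM in WT replicate 1 and 239 CPM in WT replicate 2. Most of the last value was Col2a1, at 208 CPM, while Comp was highest in αKO replicate 2 (11.8 against 9.89 CPM in WT replicate 2). The smooth muscle sum was highest in WT replicate 2 too, at 3847 CPM against 1787 to 2882 CPM in the other libraries. So were the osteocyte and osteoblast sums. The part of any of these lists in the ligand values was not tested.

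Wnt6 went the other way from these ligands. It was at 0.99 and 0.89 CPM in αKO and at 0.19 and 0.58 CPM in WT osteocytes, from 5 to 26 counts. It was the only WNT pathway gene tested with both αKO libraries above both WT libraries. The log2 fold change of 1.29 had a standard error of 0.73 (unadjusted p = 0.136). Wnt10b, which favours the osteoblast over the adipocyte lineage in the mouse, was at 0.88 and 2.46 CPM in αKO and at 2.13 and 4.73 CPM in WT osteocytes. Its groups overlapped, with a log2 fold change of -1.04 (standard error 0.73, unadjusted p = 0.212). The other 4 ligands tested, Wnt11, Wnt16, Wnt2b and Wnt5b, had log2 fold changes between -0.59 and 0.04. Wnt11 varied most between replicates of αKO, with 22 and 167 counts, against 40 and 166 counts in WT osteocytes.

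Most other ligands were not detectable at this depth. No count fell on Wnt3, Wnt3a, Wnt7a, Wnt8b, Wnt9b or Wnt10a in any library, which allows up to 3 counts, or 0.112 to 0.121 CPM. Wnt1, Wnt2 and Wnt8a had 2, 3 and 2 counts in all 4 libraries together. These 9 ligands, with Rspo1 (2 counts), Fzd9 (27 counts) and Fzd10 (7 counts), made up the 12 untested genes. Of the tested ones, only Lef1 passed the low-count filter through the WT libraries alone.

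**Figure D1:**
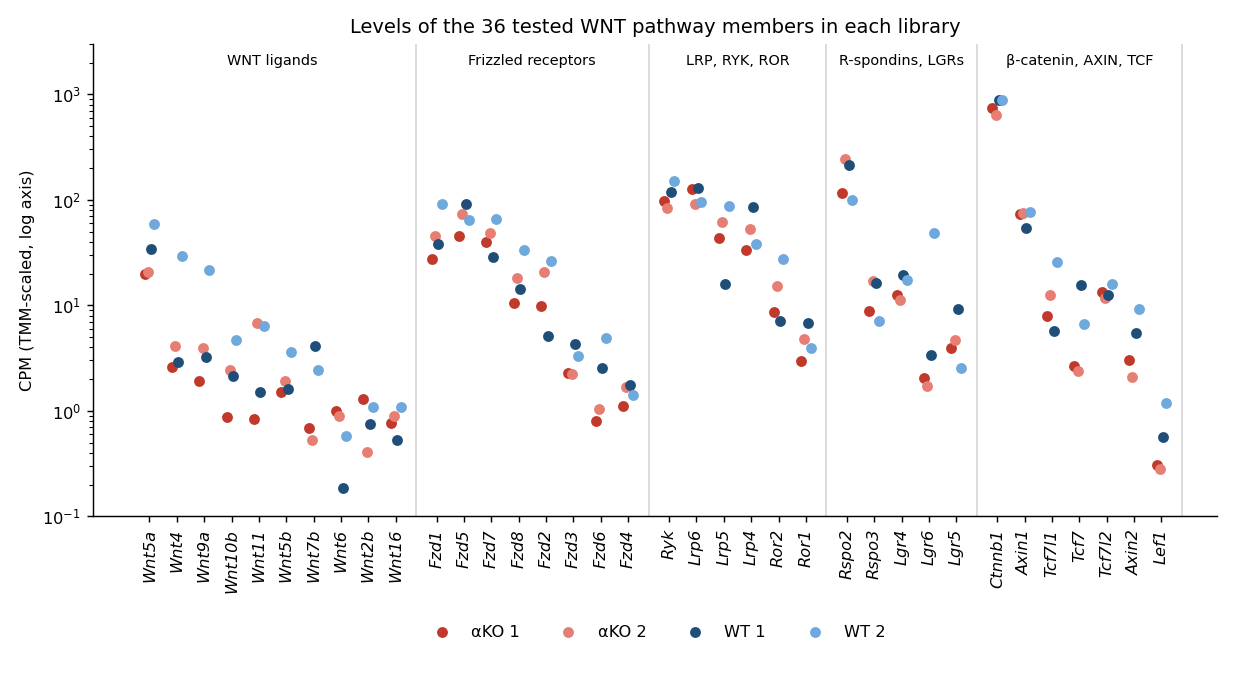
Level of each tested WNT pathway gene in each library (y axis: TMM-scaled CPM, log axis; x axis: genes by role, ordered by mean TPM within the role; points: the 2 αKO libraries in red shades and the 2 WT libraries in blue shades). Wnt7b, Fzd6, Axin2 and Tcf7 have both red points below both blue points, while Wnt4, Wnt9a and Lgr6 have 1 point, WT replicate 2, far above the rest.

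Frizzled receptors are membrane proteins that bind WNT ligands through an extracellular cysteine-rich domain. All 8 tested were lower in αKO by log2 fold change (-0.04 to -1.99, median -0.56), though only Fzd3 and Fzd6 had groups that did not overlap, and Fzd2 and Fzd7 were at 1.54 and 0.59 without WT replicate 2. Fzd6, a receptor of planar polarity in the mouse, was at 0.80 and 1.05 CPM in αKO and at 2.55 and 4.85 CPM in WT osteocytes. On the log2 scale Fzd6 differed by -1.99 (standard error 0.58, unadjusted p = 0.017), and lay between -1.49 and -2.36 with any 1 library left out. Set against its paralog Fzd7 within each library, Fzd6 had 0.0202 and 0.0217 counts per Fzd7 count in αKO and 0.0894 and 0.0739 in WT osteocytes. This ratio too did not overlap between the genotypes. Fzd6 was picked by its p from these same values, so the ratio is no separate result. Fzd3 was at 2.29 and 2.22 CPM against 4.34 and 3.31 CPM, a log2 fold change of -0.76 (unadjusted p = 0.151); it was named after its values were seen.

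Fzd6 was a minor part of the receptor pool. The Frizzled genes with the highest mean TPM were Fzd1 at 29.3, Fzd5 at 24.1 and Fzd7 at 24.1. Fzd1 was at 27.2 and 45.6 CPM in αKO and at 38.5 and 91.5 CPM in WT osteocytes (standard error 0.53 around a log2 fold change of -0.84, unadjusted p = 0.174). Fzd5 was at 45.4 and 72.7 CPM in αKO and at 90.3 and 64.4 CPM in WT osteocytes, which gave -0.39 on the log2 scale (unadjusted p = 0.344). Fzd7 was at 39.6 and 48.3 CPM in αKO and at 28.5 and 65.7 CPM in WT osteocytes, which gave -0.10 on the log2 scale (unadjusted p = 0.842). For each of these abundant receptors the genotypes overlapped. Fzd1 had an unadjusted p of 0.0144 with a GC offset (log2 fold change -0.97), 0.0371 with a replicate block (-0.75), 0.00344 with both (-0.98) and 0.00469 without WT replicate 1 (-1.30), and was at -0.12 without WT replicate 2. The summed Frizzled TPM was 66.4 and 99.6 in αKO and 97.7 and 159 in WT osteocytes.

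The co-receptor group held Lrp4, Lrp5, Lrp6, Ryk, Ror1 and Ror2. None had an unadjusted p under 0.05, and 5 of 6 were lower in αKO (median log2 fold change -0.50), but 3 of these 5 turned: Lrp6 was at 0.04 under a GC offset, at 0.22 without WT replicate 1 and at 0.18 without αKO replicate 2, Lrp4 at 0.19 without WT replicate 1 and Ror2 at 0.71 without WT replicate 2. Lrp5, the exception, was at -0.03 when scaled by library sizes alone. Ryk, a WNT receptor with an inactive kinase domain, had the highest mean TPM (94.2), and was at 97.4 and 83.0 CPM in αKO and at 119 and 151 CPM in WT osteocytes. It was the only gene of this group whose libraries did not overlap (log2 fold change -0.58, standard error 0.29, unadjusted p = 0.103). Lrp6, at a mean TPM of 28.8, was at 127 and 91.6 CPM in αKO and at 131 and 95.1 CPM in WT osteocytes, -0.05 on the log2 scale (standard error 0.33).

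Lrp5, whose loss of function gives low bone mass in people and mice, was at 43.7 and 62.1 CPM in αKO, at 15.9 CPM in WT replicate 1 and at 87.2 CPM in WT replicate 2. The WT libraries thus lay on either side of the αKO libraries, and the log2 fold change over all 4 was 0.04 (standard error 0.79). Leaving out WT replicate 2 gave 1.69 and leaving out WT replicate 1 gave -0.70. No direction can be given for Lrp5 in these libraries. Lrp5 had 0.344 and 0.677 counts per Lrp6 count in αKO and 0.122 and 0.917 in WT osteocytes.

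**Figure D2:**
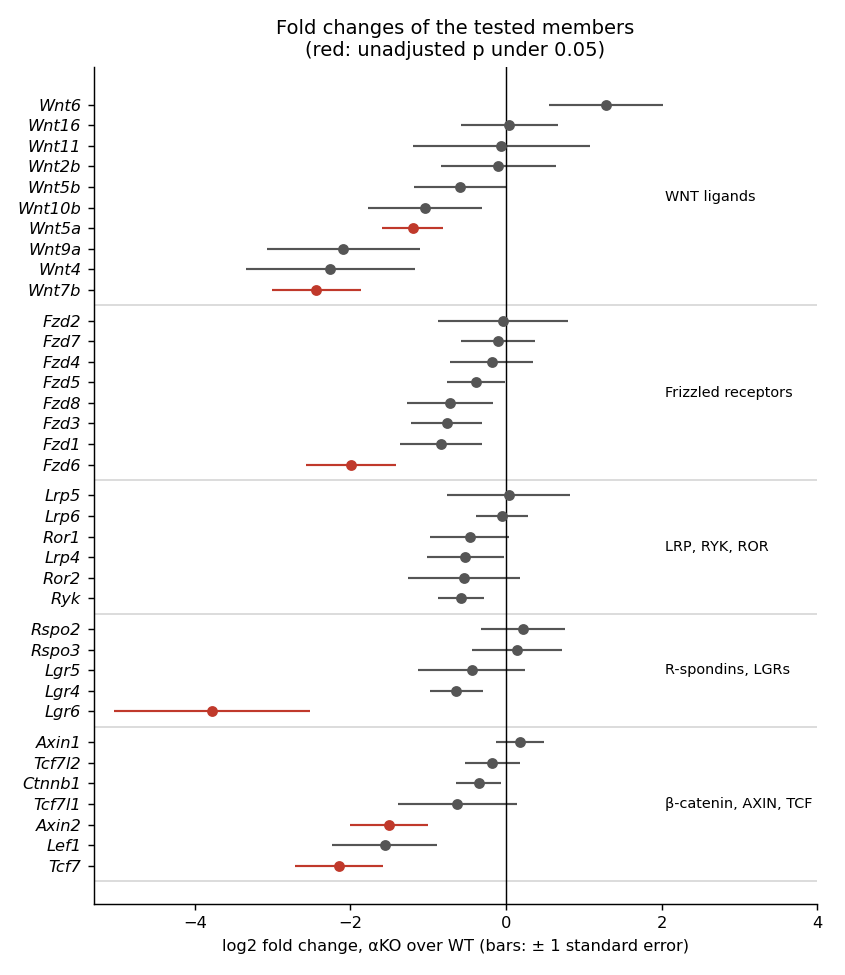
Log2 fold change of each tested WNT pathway gene (x axis: αKO over WT; bars: 1 standard error on either side, 2 libraries per genotype; rows: genes by role; red: unadjusted p under 0.05). Lgr6 stands at -3.78 with the widest bar, Wnt7b, Tcf7 and Fzd6 stand near -2 with narrower bars, and 30 of 36 points lie below 0.

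Among the R-spondins and their receptors, Rspo2 was by far the most abundant (mean TPM 122, against 12.5 for Rspo3 and 7.32 for Lgr4). Rspo2 was at 117 and 244 CPM in αKO and at 212 and 99.1 CPM in WT osteocytes. The high libraries were αKO replicate 2 and WT replicate 1, and the log2 fold change was 0.21 (standard error 0.54, unadjusted p = 0.709). Rspo3 followed the same order of libraries, at 8.84 and 16.9 CPM against 16.3 and 7.08 CPM (log2 fold change 0.14). Both genes differed more between replicates of 1 genotype than between the genotypes.

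Lgr6 was at 2.06 and 1.73 CPM in αKO, at 3.37 CPM in WT replicate 1 and at 49.0 CPM in WT replicate 2, from 54, 43, 90 and 1272 counts. Both αKO libraries were below both WT libraries, but WT replicate 1 was much closer to αKO than to WT replicate 2. The log2 fold change was -3.78 (standard error 1.26, unadjusted p = 0.029). Leaving out WT replicate 1 gave -4.66 and leaving out WT replicate 2 gave -0.87, so WT replicate 2 decides the value. DESeq2 gave Lgr6 an adjusted p of 0.0179, the only WNT pathway gene it passed, where it passed 0.389% of the 13371 genes with an adjusted p. Lgr6 took 16.5% of the summed R-spondin and LGR TPM in WT replicate 2 and 0.307% to 0.722% in the other libraries. The chondrocyte sum, most of it Col2a1, and the smooth muscle sum were highest in WT replicate 2 as well. Their part in the Lgr6 value was not tested.

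Lgr4, the most abundant of the LGR receptors per unit length, was steadier. It was at 12.5 and 11.1 CPM in αKO and at 19.4 and 17.4 CPM in WT osteocytes, without overlap. This was a log2 fold change of -0.64 (standard error 0.34, unadjusted p = 0.116). Against it, Lgr6 had 0.165 and 0.156 counts per Lgr4 count in αKO, 0.174 in WT replicate 1 and 2.81 in WT replicate 2. Set per Lgr4 count, Lgr6 in WT replicate 1 was thus next to the αKO libraries.

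**Figure D3:**
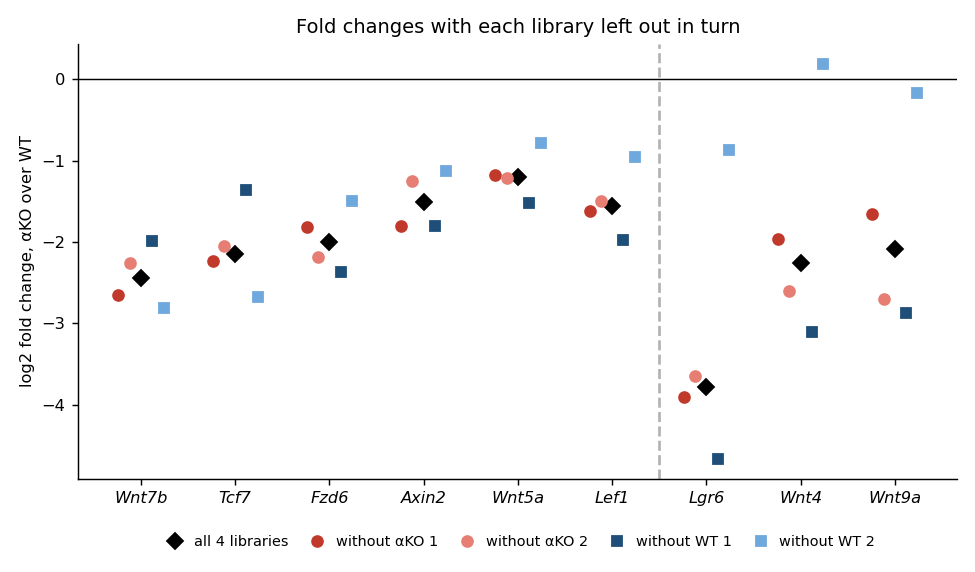
Log2 fold change (y axis: αKO over WT) of 9 WNT pathway genes with all 4 libraries (black diamonds) and with each library left out in turn (red circles: an αKO library left out; blue squares: a WT library left out). Leaving out a library leaves a single one in its group, so the points show size and sign only. Left of the dashed line all values stay below 0 for Wnt7b, Tcf7, Fzd6, Axin2, Wnt5a and Lef1. Of these, Lef1 passed the low-count filter through the WT libraries alone. Right of the line the value without WT replicate 2 moves to -0.87 for Lgr6, 0.19 for Wnt4 and -0.17 for Wnt9a.

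Inside the cell, 7 genes were tested, of which 6 were lower in αKO and Axin1 was higher (median log2 fold change -0.62). Ctnnb1, which encodes β-catenin, had the highest mean TPM of all the WNT pathway genes (527). It was at 749 and 630 CPM in αKO and at 879 and 878 CPM in WT osteocytes, without overlap (log2 fold change -0.35, standard error 0.29, unadjusted p = 0.28). β-catenin is regulated mainly through its protein, which was not measured here. Axin1, the constitutive scaffold of the destruction complex, was at 73.9 and 74.4 CPM in αKO and at 54.5 and 76.1 CPM in WT osteocytes, 0.18 on the log2 scale (unadjusted p = 0.575). Its direction did not hold, at -0.002 with a GC offset, -0.001 with that and a replicate block, and -0.013 without WT replicate 1.

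Axin2, a scaffold paralog whose gene β-catenin switches on as feedback, was at 3.05 and 2.10 CPM in αKO and at 5.51 and 9.16 CPM in WT osteocytes. Both αKO libraries were below both WT libraries. The log2 fold change was -1.51 (standard error 0.50, unadjusted p = 0.028), and lay between -1.13 and -1.81 with any 1 library left out. Per Axin1 count there were 0.0412 and 0.0282 Axin2 counts in αKO and 0.101 and 0.120 in WT osteocytes. Axin2 was picked by its p from these same values and Axin1 differed little, so this ratio is no separate result.

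Tcf7, which encodes TCF1 and is itself a target of β-catenin in many cells, was at 2.67 and 2.38 CPM in αKO and at 15.7 and 6.58 CPM in WT osteocytes. WT replicate 1 was the highest library here, not WT replicate 2. Tcf7 had a log2 fold change of -2.14 (standard error 0.57, unadjusted p = 0.012), which lay between -1.36 and -2.67 with any 1 library left out. Lef1, another such target, was at 0.31 and 0.28 CPM in αKO and at 0.56 and 1.19 CPM in WT osteocytes, from 7 to 31 counts (log2 fold change -1.56, standard error 0.68, unadjusted p = 0.068). Its groups did not overlap, but it passed the low-count filter through the WT libraries alone. Wnt5a, Wnt6, Wnt7b, Fzd6, Axin2, Tcf7 and Lef1 each have a gene on the other strand, and since the strand setting of the counting is not known their reads cannot be told apart. These partners had 0 to 9 counts in any library.

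The other TCF factors did not follow Tcf7. Tcf7l2 was at 13.5 and 11.7 CPM in αKO and at 12.5 and 15.9 CPM in WT osteocytes, with overlapping groups and a log2 fold change of -0.17 (standard error 0.36). Tcf7l1, which mostly represses WNT targets and had the highest mean TPM of the TCF factors (10.1), was at 7.85 and 12.5 CPM in αKO and at 5.73 and 25.7 CPM in WT osteocytes. Its log2 fold change of -0.62 (standard error 0.76) turned from -1.31 with WT replicate 1 left out to 0.79 with WT replicate 2 left out. Within each library there were 0.198 and 0.203 Tcf7 counts per Tcf7l2 count in αKO, and 1.25 and 0.413 in WT osteocytes. Tcf7 accounted for 17.1% and 12.9% of the summed TCF and LEF TPM in αKO and for 59.1% and 18.1% in WT osteocytes. By share, WT replicate 2 was near the αKO libraries, and Tcf7l1 held 60.0% there.

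**Figure D4:**
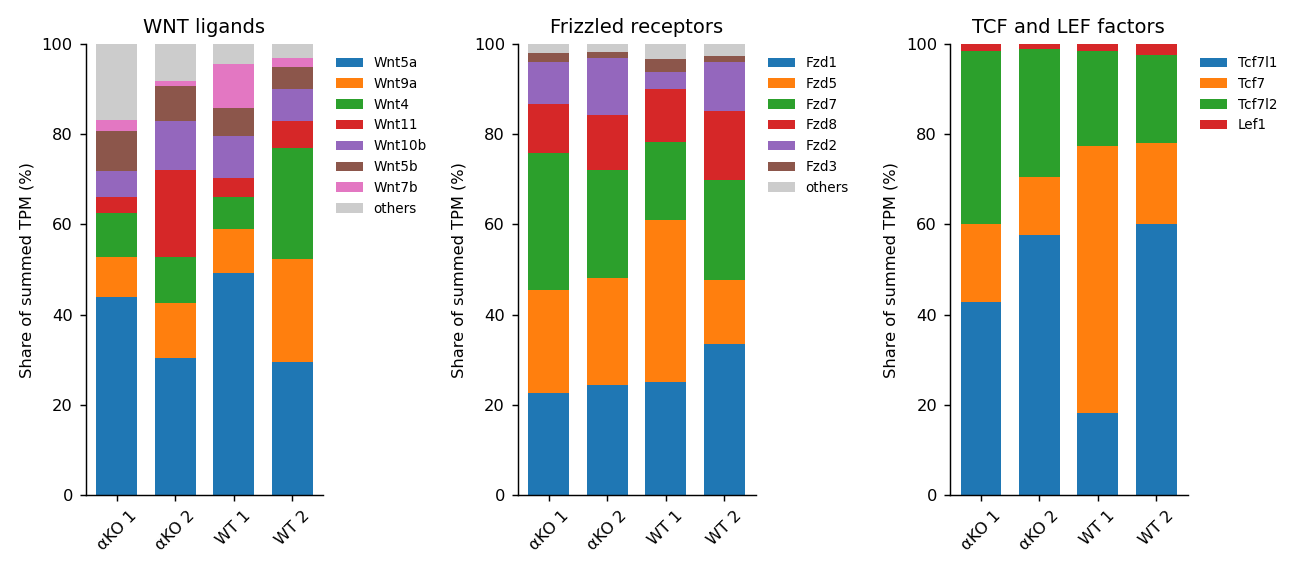
Share of each gene in the summed TPM of its group in each library (y axis: percent, from 0 to 100; bars: 1 library each; left, WNT ligands; middle, Frizzled receptors; right, TCF and LEF factors). Wnt4 and Wnt9a take 24.5% and 22.9% of the ligand TPM in WT replicate 2, and Tcf7 takes 59.1% of the TCF and LEF TPM in WT replicate 1.

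The promoters of these genes were searched for the letters that TCF and LEF factors bind, CTTTGAT or CTTTGAA on either strand, and for the direct repeat bound by PPAR with its partner RXR, 2 copies of AGGTCA with any 1 base between. The RefSeq table of GRCm38.p6 promoters, each 250 bases before to 50 bases after a start, held 33 of the 48 genes and 23 of the 36 tested ones, with 32 windows. CTTTGAT or CTTTGAA was present in 2 of the 32 windows, of Wnt11 and Wnt5b, against 8.65% of all 32851 promoters. The direct repeat was in none of the 32, against 0.0396% of all promoters. A window each of Axin2, Tcf7 and Lgr6 is shown because these are the genes in the table with an unadjusted p under 0.05. A window of Wnt11 is shown because it holds a match, in capitals (ATCAAAG, which reads CTTTGAT on the other strand). The first base of the match is at position -51 from the start. Each reads 5′ to 3′ on the strand of its gene: Axin2 at chr11:108920099-108920398 (plus strand), Tcf7 at chr11:52282965-52283264 (minus strand), Lgr6 at chr1:135105227-135105526 (minus strand) and Wnt11 at chr7:98834862-98835161 (plus strand).
Axin2: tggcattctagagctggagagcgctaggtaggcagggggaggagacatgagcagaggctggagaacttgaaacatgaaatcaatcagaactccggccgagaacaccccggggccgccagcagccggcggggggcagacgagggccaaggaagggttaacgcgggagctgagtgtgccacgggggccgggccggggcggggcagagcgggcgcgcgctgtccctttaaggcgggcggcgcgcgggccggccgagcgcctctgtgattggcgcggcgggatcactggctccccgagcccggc
Tcf7: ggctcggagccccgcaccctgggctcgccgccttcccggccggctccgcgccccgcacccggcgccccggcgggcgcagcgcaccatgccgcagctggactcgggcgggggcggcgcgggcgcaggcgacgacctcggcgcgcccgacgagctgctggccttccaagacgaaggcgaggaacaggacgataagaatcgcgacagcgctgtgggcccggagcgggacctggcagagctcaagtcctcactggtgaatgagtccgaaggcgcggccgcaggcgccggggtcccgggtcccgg
Lgr6: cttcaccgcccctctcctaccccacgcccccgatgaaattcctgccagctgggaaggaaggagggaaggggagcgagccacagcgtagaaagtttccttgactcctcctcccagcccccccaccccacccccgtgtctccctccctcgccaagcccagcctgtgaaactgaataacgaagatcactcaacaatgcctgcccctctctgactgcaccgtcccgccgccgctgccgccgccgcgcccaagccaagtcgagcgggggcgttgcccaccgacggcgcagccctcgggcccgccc
Wnt11: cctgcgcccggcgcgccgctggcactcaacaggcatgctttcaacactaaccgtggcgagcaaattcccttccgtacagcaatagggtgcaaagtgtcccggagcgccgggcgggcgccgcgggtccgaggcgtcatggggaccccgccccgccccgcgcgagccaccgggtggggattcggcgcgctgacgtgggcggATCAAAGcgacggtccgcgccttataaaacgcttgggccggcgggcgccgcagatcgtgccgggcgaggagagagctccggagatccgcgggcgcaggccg
The first 3 hold neither motif. The further windows of Tcf7 (chr11:52282546-52282845) and Wnt11 (chr7:98838595-98838894), not shown, hold neither as well. This says only that these letters are not in these windows. Of the 2 genes with a match, Wnt11 had a log2 fold change of -0.06 and Wnt5b of -0.59, both with overlapping groups.

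Across all 36 genes, 6 (16.7%) had an unadjusted p under 0.05, all on the lower side, where 351 of 13571 genes (2.59%) did so over the whole table and 5.39% in either direction. Both αKO libraries were below both WT libraries in 11 genes (30.6%), against 16.0% of all genes, and above both in 1 gene, Wnt6, against 17.1% of all genes; in either direction 33.2% of all genes had libraries that did not overlap. A log2 fold change of -1 or less was found in 10 genes (27.8%), against 5.73% of all genes, and one of 1 or more in Wnt6 alone, against 4.75% of all genes. A log2 fold change below 0 was found in 83.3% of these genes, against 50.8% of all genes, and their median log2 fold change was -0.53, against -0.01 over all genes tested. These shares are descriptions and carry no test. Lef1, which passed the low-count filter through the WT libraries alone, is counted among the genes below 0, without overlap and at -1 or less. Without WT replicate 2 the genes below 0 numbered 24 of 36 and the median was -0.33. The count at an unadjusted p under 0.05 was 15 without WT replicate 1 (20.8% of all genes; 5 genes at an adjusted p, against 5.74%), 10 without WT replicate 2 (22.8%; 3 genes at an adjusted p, against 4.88%) and 3 without αKO replicate 1 (2.14%) or αKO replicate 2 (1.65%). It was 11 with a GC offset (11.3%), 9 with a replicate block (11.1%) and 10 with both (13.1%).

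The spread between replicates was wide for these genes. The WT libraries differed by 2-fold or more in 19 of 36 genes (52.8%), against 31.6% of all genes, and the αKO libraries in 6 (16.7%), against 7.69%. WT replicate 2 was the highest library for 20 genes (55.6%, against 31.1% of all genes). WT replicate 1 was the highest for 11 (30.6%, against 31.5%). The lowest library was an αKO library for 25 genes. It was αKO replicate 1 for 13 (36.1%, against 12.4% of all genes) and αKO replicate 2 for 12 (33.3%, against 22.4%). Genes with the largest gap between the WT libraries included Lgr6, Wnt4 and Wnt9a, which were low in αKO, but also Lrp5, Fzd2 and Wnt11, with log2 fold changes between -0.06 and 0.04. Of these, Fzd2 was named after its values were seen. Tcf7l1 had a wider gap than Wnt11 (log2 ratios of -2.15 and -2.02, WT replicate 1 over replicate 2) and a log2 fold change of -0.62.

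**Figure D5:**
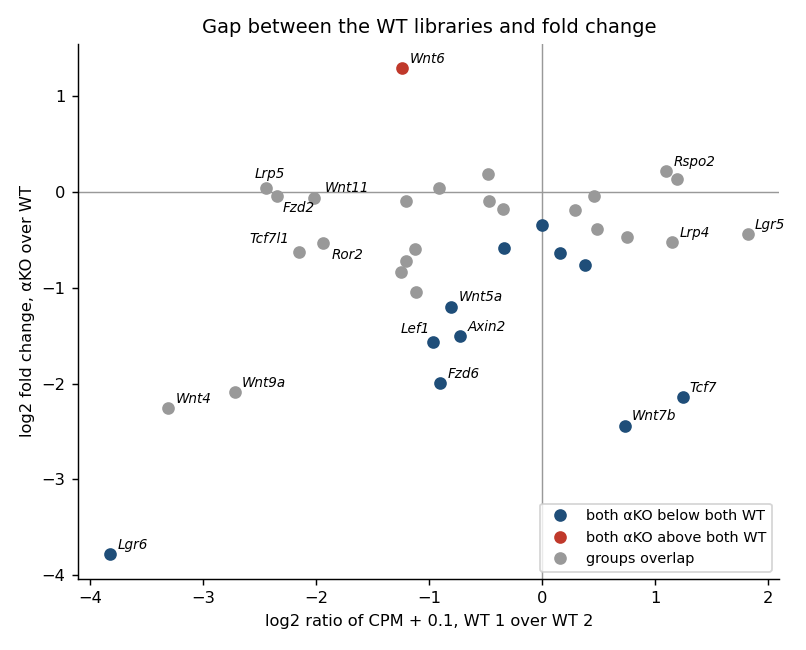
Gap between the WT libraries (x axis: log2 ratio of replicate 1 over replicate 2, from CPM + 0.1) and log2 fold change of αKO over WT (y axis) for the 36 tested WNT pathway genes; colours show whether the libraries of the genotypes overlap. Lgr6, Wnt4 and Wnt9a lie at the lower left with gaps of -3.82, -3.31 and -2.72, and Tcf7 and Wnt7b at the lower right with gaps of 1.24 and 0.73.

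Around these genes, other parts of the pathway were read from lists that share no gene with the 48. Their counts stand beside 50.8% of all genes tested that were lower in αKO and 2.59% that were lower with an unadjusted p under 0.05, and carry no test. The genes listed as secreted antagonists are not all secreted (Apcdd1, Kremen1) and not all plain inhibitors (Gpc4, Cthrc1). They were lower in αKO in 12 of 13 tested (of 21 listed), with a median log2 fold change of -0.71. Of these, 3 had an unadjusted p under 0.05. Notum, an enzyme that removes the lipid of WNT proteins and whose gene antisense genes overlap, was at 0.72 and 1.01 CPM in αKO and at 4.16 and 5.89 CPM in WT osteocytes, -2.53 on the log2 scale (unadjusted p = 0.0041). Apcdd1, a membrane inhibitor of the pathway, was at 10.6 and 7.63 CPM against 36.4 and 24.7 CPM (log2 fold change -1.74, unadjusted p = 0.0069). Frzb, a secreted Frizzled-related protein, was at 1.91 and 1.82 CPM against 5.24 and 9.55 CPM (log2 fold change -1.99, unadjusted p = 0.0103). In all 3 the αKO libraries lay below the WT libraries. Lower values thus stood on this mixed list alongside the lower values among ligands and receptors.

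Genes known as targets of the pathway were lower in αKO in 15 of 20 tested (of 25 listed), with a median log2 fold change of -0.58. Besides Notum and Apcdd1, which both lists hold, Irs1 (an adaptor of the insulin receptor) had an unadjusted p under 0.05, at 62.2 and 84.2 CPM in αKO and at 216 and 149 CPM in WT osteocytes, -1.32 on the log2 scale (unadjusted p = 0.0118). Of the planar polarity partners, 13 of 17 tested (of 20 listed) were lower, with a median of -0.42. Only Rock2, a kinase of the cytoskeleton, had an unadjusted p under 0.05 there, at 166 and 98.8 CPM against 269 and 246 CPM (log2 fold change -0.96, unadjusted p = 0.0423). The list of secretion and cytoplasmic relay genes mixes genes that carry the signal with genes that restrain it, such as Apc, Gsk3b and Znrf3. It was lower in 23 of 29 tested (of 30 listed) with a median of -0.23, and none had an unadjusted p under 0.05. The nuclear cofactors of β-catenin were lower in 10 and higher in 12 of 22 tested (of 23 listed), with a median of 0.02 and none under that p. No gene on these 5 lists had an adjusted p under 0.05 (edgeR's quasi-likelihood test), and DESeq2 passed Notum alone among them.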

How the data were processed

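RNA-seq counts of 4 libraries were used, 2 αKO and 2 WT, grouped by the labels. Per the submitters' processing notes the authors used Trimmomatic 0.35, HTSeq 0.9.1 and DESeq2 1.16.1 in R 3.4.0 on mm10; the aligner, annotation and strand setting are not given in the sources used here, and 17 of the 36 tested genes have a gene on the other strand. The authors deposited whole-number counts per gene and a separate table of TPM, which was used only to compare levels between genes. Their columns of fold changes and p-values were not used. Counts were tested with edgeR 4.0.16 in R 4.3.3 (filterByExpr with a minimum count of 10, TMM, quasi-likelihood test, two-sided, Benjamini-Hochberg over 13571 genes). A standard error is the size of the log2 fold change over the square root of F. The smallest p of an exact permutation test of 2 libraries against 2 is 0.3333. The code was tested on simulated data. Coordinates are from GENCODE's GRCm38 annotation, the same build as mm10. Alternatives used DESeq2 1.42.0, limma 3.58.1, other scalings and filters, a GC offset, a replicate block and each library left out.

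Values per library are given for tested genes with an unadjusted p under 0.05, a log2 fold change of 1 or more in size, or a place among the 3 highest mean TPM of their role, and for paralogs set beside them; others are given by range and count. The genes and lists were chosen with earlier results of these data known.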

Additional observations from a re-analysis of the deposited data

How the results depend on the processing

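With 2 libraries a genotype, the calls moved with the method and with single libraries. Of the 36 WNT pathway genes, 6 had an unadjusted p under 0.05 in edgeR's quasi-likelihood test. The count was 3 to 15 with 1 library left out (15 without WT replicate 1, 10 without WT replicate 2, 3 without either αKO replicate) and 11 with a GC offset, where 11.3% of all genes passed. None passed an adjusted p of 0.05; DESeq2 passed 1 (Lgr6), and with 1 library left out 0 to 5 did: Lgr6, Wnt4, Wnt9a, Wnt5a and Fzd6 without WT replicate 1, and Tcf7, Lrp5 and Wnt7b without WT replicate 2. A lone WT library is then assumed to vary like the αKO libraries. Of all genes 0 passed (732 had an unadjusted p under 0.05), while 52 did by DESeq2, 28 by edgeR's likelihood ratio test and 1 to 806 with 1 library left out. The number of WNT pathway genes lower in αKO, 30, lay between 24 and 32, and their median log2 fold change between -0.33 and -0.76.

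The same replicate numbers do not mark a shared animal or day in the labels. The deviations of same-numbered libraries from their group means correlated at 0.487, a hint from the data only. With the replicate block 9 WNT pathway genes had an unadjusted p under 0.05 (11.1% of all genes) and 1 gene of the whole table passed the adjusted p. With the block and the GC offset together the count was 10 (13.1% of all genes). Of the 36 genes, 19 kept the sign of their fold change in all settings, 18 of them lower. Of 504 single values under the alternatives, 422 kept sign and side of the threshold, 33 passed it newly, 11 no longer did and 38 changed sign, of which only Fzd2 without WT replicate 2 (1.54, unadjusted p = 0.00963) was past the threshold. Depth limits Wnt2b, Wnt6, Wnt7b, Wnt10b, Wnt11, Wnt16, Lef1, Fzd4 and Fzd6, each with under 30 counts in at least 1 library.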
